A study of Mus musculus with 10 samples.

Results

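Gene expression was compared between the pair of conventional dendritic cell subsets of the mouse spleen in animals without Atg16l1, a gene needed for autophagy. The 4 libraries of genotype Atg16l1 -/- were taken from a series of 10: 2 carried the subset label CD11b (CD11b KO 1 and 2) and 2 the label CD8 (CD8 KO 1 and 2). The other 6 libraries came from Atg16l1 +/+ mice, 3 for each label (CD11b WT 1 to 3 and CD8 WT 1 to 3), and served to estimate the spread and to test where the subset difference itself changed with genotype. Per the labels, all mice were of strain C57BL/6 and 16 weeks old, each spleen suspension came from an individual mouse, and cells were enriched for CD11c on magnetic beads after enzymatic digestion. The sort then took MHCII-high CD11c-high events that were either CD11b+ CD8- or CD11b- CD8+. The series title places the work in a mouse model of atherogenesis, but the labels name no diet, no second allele, no Cre driver and no deleted exon, so whether Atg16l1 was lost in dendritic cells alone or in the whole animal cannot be read from them. The labels do not say whether libraries with the same number came from the same mouse. The p-values below set each difference against the spread estimated over all 10 libraries, which the main fit treated as unpaired.

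Conventional dendritic cells fall into a type 1 subset (cDC1) and a type 2 subset (cDC2). The cDC1 depend on the transcription factors IRF8 and BATF3, take up dead cells and present their antigens on MHC class I to CD8+ T cells, and in mouse spleen carry CD8 alpha, XCR1 and CLEC9A. The cDC2 depend on IRF4, Notch signalling and other factors, carry CD11b and SIRP alpha, and mainly prime CD4+ T cells. Autophagy encloses cell contents in a double membrane and delivers them to lysosomes, and the ATG16L1 protein, in a complex with ATG5 and ATG12, places LC3 on that membrane. In dendritic cells the same machinery takes part in antigen handling and in LC3-associated phagocytosis.

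Atg16l1 (ENSMUSG00000026289, chromosome 1, 87755870 to 87792428) was low in each of the 4 KO libraries (positions here and below are on GRCm38). It stood at 3.03 and 1.83 CPM (counts scaled to the TMM-normalised size of the library) in CD11b KO 1 and 2, at 1.73 and 3.31 CPM in CD8 KO 1 and 2, while the CD11b WT libraries held 13.3 to 32.7 CPM and the CD8 WT libraries 15.2 to 19.5 CPM. The KO groups overlapped, and no difference between the labels was detected in KO (log2 fold change −0.06 ± 0.46 SE, adjusted p = 0.958). Here and below, log2 fold changes are CD11b KO over CD8 KO with their standard error from edgeR's quasi-likelihood test, p-values are adjusted by the Benjamini-Hochberg method over 14528 genes, and a gene is called under an adjusted p of 0.05. A value below 0 means a higher level at the label CD8.

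The subset labels of the KO libraries ran opposite to their markers. Cd8a (ENSMUSG00000053977, chromosome 6, 71373427 to 71379173), the gene for the CD8 alpha chain, stood at 453 and 505 CPM in CD11b KO 1 and 2 and at 4.69 and 2.70 CPM in CD8 KO 1 and 2. Xcr1 (ENSMUSG00000060509, chromosome 9, 123852315 to 123862029), the receptor for the chemokine XCL1, stood at 290.0 and 419 CPM against 10.5 and 7.14 CPM. Both cDC1 markers were thus high in the libraries labelled CD11b, and the groups did not overlap, as for 58.7% of all genes tested (8533). Itgam (ENSMUSG00000030786, chromosome 7, 128062640 to 128118491), which encodes CD11b itself, stood at 2.62 and 1.92 CPM in CD11b KO 1 and 2 and at 96.03 and 104 CPM in CD8 KO 1 and 2, and Sirpa (ENSMUSG00000037902, chromosome 2, 129592835 to 129632228), the inhibitory receptor SIRP alpha, at 26.4 and 24.5 CPM against 625 and 553 CPM. The log2 fold changes were 7.01 ± 0.34 for Cd8a, 5.33 ± 0.22 for Xcr1, −5.47 ± 0.24 for Itgam and −4.53 ± 0.14 for Sirpa, with adjusted p from 1.74e-16 to 3.34e-13. The pattern of all 4 was that of cDC1 in CD11b KO 1 and 2 and that of cDC2 in CD8 KO 1 and 2, and the same held in the WT libraries of each label. The labels are kept as deposited, so "higher" below means higher in the libraries labelled CD11b, which carry the cDC1 markers, and "lower" means higher in those labelled CD8.

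**Figure D1:**
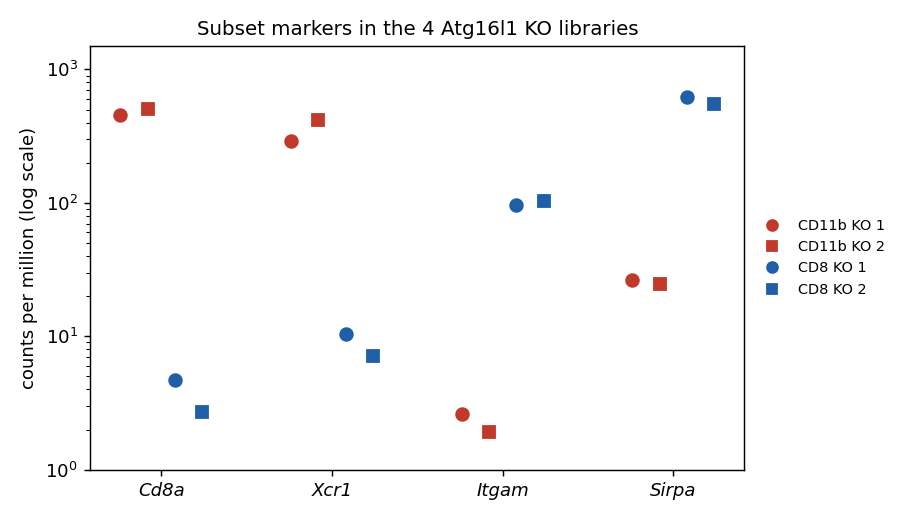
Level of the 4 subset markers in each Atg16l1 KO library, in CPM on a log axis. Circles are replicate 1 and squares replicate 2, red for the label CD11b and blue for the label CD8. Cd8a and Xcr1 are high and Itgam and Sirpa low in both libraries labelled CD11b, with the reverse in both labelled CD8.

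The KO libraries held 10037370 and 12289377 gene counts (CD11b KO 1 and 2) and 11787504 and 10964191 (CD8 KO 1 and 2), within the range of all 10 libraries (9467704 to 13768884). Across genes, the correlation of log2 CPM was 0.948 between the CD11b KO libraries, 0.958 between the CD8 KO libraries and 0.879 to 0.893 across the labels. Mitochondrially encoded genes took 5.44% to 5.82% of the counts. Immunoglobulin genes took 0.272% of CD8 KO 2. Their share was 0.0961% in CD8 KO 1 and 0.0301% and 0.0646% for CD11b KO 1 and 2, with at most 0.0984% in any WT library. In these bulk samples, fewer cells of a type and less RNA per cell cannot be told apart.

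Of the 14528 genes tested, 3312 (22.8%) were called between the subsets in KO. At the label CD11b, 1502 genes (10.3%) were higher and 1810 (12.5%) lower. Counts of called list members below are to be read beside these shares. Dropping any KO library lost calls, so a loss given below for a library need not be particular to it. At least 2-fold differences were called for 757 higher genes (5.21%) and 1134 lower genes (7.81%), and differences of at least 8-fold for 181 and 362. The median log2 fold change over all genes was −0.01. In the WT libraries, which share no sample with the KO libraries, 4285 genes were called between the same labels. Both contrasts came from the same fit, with the spread of each gene estimated over all 10 libraries, so their calls are not independent. Of the 3312 genes called in KO, 2834 were also called in WT, 2832 of them in the same direction, and 3268 had the same sign. The other 478 were called in KO only and 1451 in WT only, which does not by itself show a difference between the genotypes, since WT had 3 libraries a group and KO 2. Across genes, which are not independent replicates, the KO and WT log2 fold changes correlated with r = 0.611. When each KO library was left out in turn, 796 higher and 1038 lower genes remained called every time, and the higher and lower calls lost were 390 and 484 when CD11b KO 1 was dropped, 419 and 450 for CD11b KO 2, 498 and 473 for CD8 KO 1 and 430 and 429 for CD8 KO 2.

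**Figure D2:**
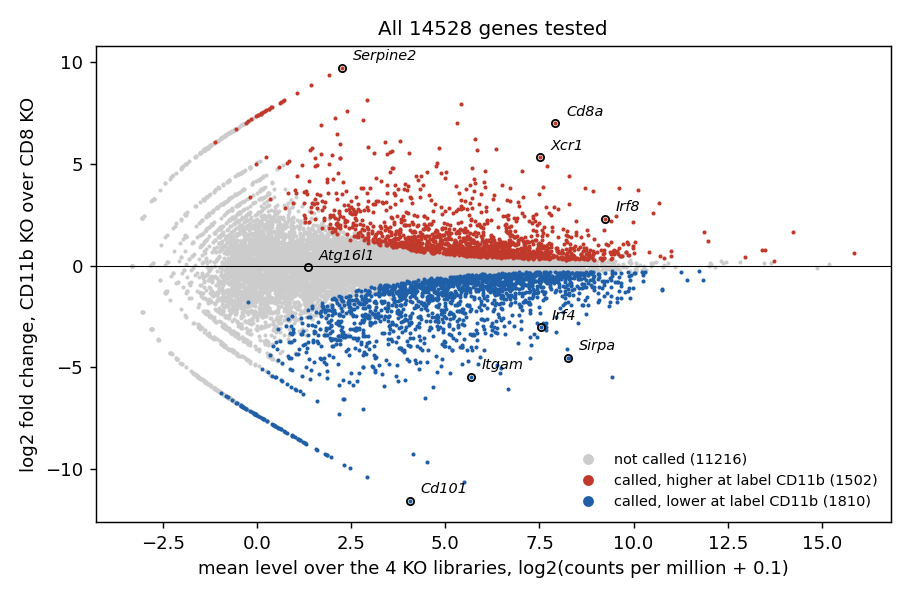
Log2 fold change of CD11b KO over CD8 KO against the mean level over the 4 KO libraries (log2 of CPM + 0.1), 1 point per gene tested. Red points are the 1502 genes called higher at the label CD11b, blue points the 1810 called lower and grey points the rest. Atg16l1 lies near 0, with Serpine2 the highest and Cd101 the lowest of the genes named.

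The cDC1 programme was present in the KO cells almost whole, as it was in WT. Of 26 cDC1 identity genes, 25 were higher at the label CD11b and 1 was lower, with a median log2 fold change of 3.46 against −0.01 over all genes. The 25 include Cd8a and Xcr1, from which the identity was stated above, so these markers are not independent of it. Clec9a, the receptor for actin filaments exposed by dead cells, stood at 556 and 626 CPM in CD11b KO 1 and 2 and at 26.8 and 29.00 CPM in CD8 KO 1 and 2 (4.41 ± 0.17). Cadm1, an adhesion molecule of cDC1, stood at 359 and 451 CPM against 13.8 and 12.98 CPM (4.92 ± 0.29), and Itgae, the CD103 integrin chain, at 113 and 113 CPM against 1.81 and 2.53 CPM (5.7 ± 0.42). For these 3 surface molecules the lowest CD11b KO value lay far above the highest CD8 KO value. Among intracellular members, Naaa, an acid amidase, reached 1363 and 1537 CPM against 97.8 and 108 CPM (3.82 ± 0.15) and Ppt1, a lysosomal thioesterase, 1859 and 2235 CPM against 156 and 159 CPM (3.7 ± 0.13). Wdfy4, which cDC1 need for cross-presentation, was abundant at both labels and differed (1.19 ± 0.08), with 5480.0 and 5785 CPM against 2629 and 2299.9 CPM.

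The transcription factors of the cDC1 lineage had smaller log2 fold changes than the surface molecules above. Irf8 stood at 1000.1 and 1002 CPM in CD11b KO 1 and 2 and at 165 and 240.2 CPM in CD8 KO 1 and 2 (2.3 ± 0.15), and Batf3, its partner at composite DNA elements, at 65.5 and 47.2 CPM against 27.4 and 30.6 CPM (0.96 ± 0.21). Id2, an inhibitor of E proteins, was higher (1.64 ± 0.15). Cxcr3, a receptor for interferon-induced chemokines, was higher (2.67 ± 0.70), with 8.38 and 14.2 CPM against 0.412 and 3.14 CPM, and lost its call without CD11b KO 2 at 2.24 (adjusted p = 0.0696) or without CD8 KO 1 at 1.84 (adjusted p = 0.099). Without CD8 KO 2 its log2 fold change was 4.75. The exception of the list was Fgl2, a secreted fibrinogen-like protein, at 203 and 277 CPM against 364 and 398 CPM (−0.67 ± 0.15), which also was lower in WT (−0.39) and was not called without CD11b KO 1 at −0.46 (adjusted p = 0.0553).

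The cDC2 programme stood on the other side. Of 30 cDC2 identity genes, 24 were lower at the label CD11b, 3 were higher and 3 were not called. The median log2 fold change was −3.35 (−3.22 when 1 gene without counts at the label CD11b was set to its bound). The 24 include Itgam and Sirpa, from which the identity was likewise stated. Irf4, the transcription factor of cDC2, stood at 36.3 and 43.8 CPM in CD11b KO 1 and 2 and at 350.1 and 309 CPM in CD8 KO 1 and 2 (−3.04 ± 0.16). Dtx1, a Notch target, stood at 3.23 and 2.67 CPM against 205 and 192 CPM (−6.08 ± 0.22), and Csf1r, the receptor for macrophage colony-stimulating factor, at 17.6 and 20.2 CPM against 307 and 269.6 CPM (−3.93 ± 0.20). All 3 were high in both CD8 KO libraries. Il1r2, the decoy receptor for interleukin-1, was lower (−4.09 ± 0.13), as were the coreceptor Cd4 (−3.32 ± 0.20), the zinc finger factor Klf4 (−2.38 ± 0.14) and the fractalkine receptor Cx3cr1 (−3.7 ± 0.42).

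Esam, an adhesion molecule of the Notch-dependent cDC2 of spleen, was lower (−1.81 ± 0.54), with 6.36 and 1.33 CPM against 14.8 and 11.8 CPM, and was not called without CD11b KO 2 at −1.06 (adjusted p = 0.217) or without CD8 KO 1 at −1.63 (adjusted p = 0.0941), and stood at −3.31 (adjusted p = 0.000946) without CD11b KO 1. Clec12a, an inhibitory lectin for uric acid crystals, was on the list but higher at the label CD11b, with 101 and 90.9 CPM against 21.5 and 25.3 CPM (2.03 ± 0.18). Tbc1d8, a Rab regulator, and Rnase6, a secreted ribonuclease, were likewise higher (1.01 ± 0.10 and 0.86 ± 0.16). The 3 members that were not called were Mgl2, Ccr2 and S100a11: Ccr2, the receptor for monocyte chemokines, stood at 22.7 and 20.2 CPM against 31.5 and 27.2 CPM (−0.45 ± 0.22, adjusted p = 0.164). All 27 called genes were also called in the same direction in WT.

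**Figure D3:**
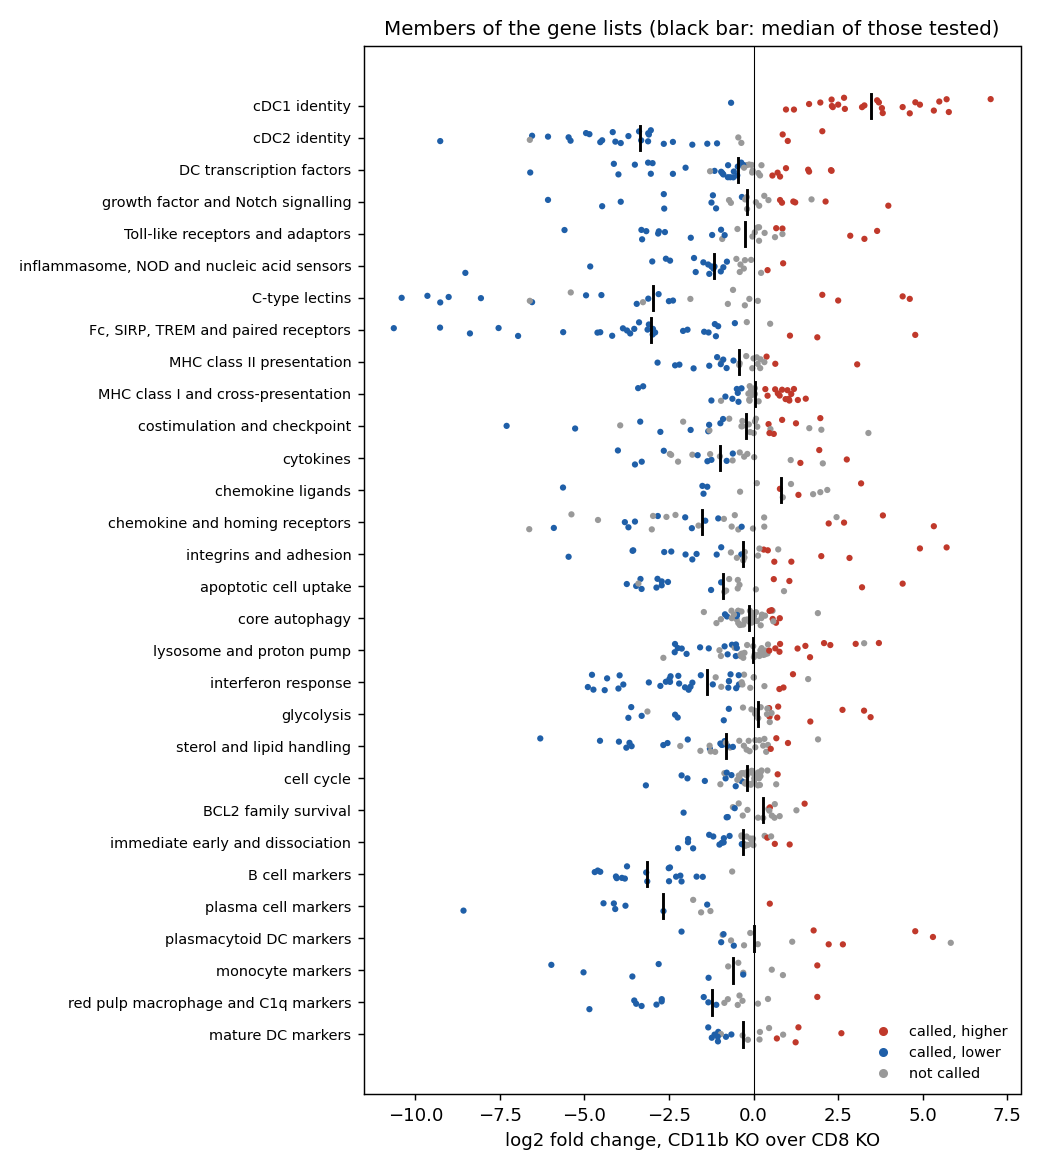
Log2 fold change of CD11b KO over CD8 KO for the tested members of 30 gene lists, 1 point per gene, with a black bar at the median of each list. Red and blue points were called higher and lower at the label CD11b, grey points were not called. Almost all cDC1 identity genes lie right of 0 and most cDC2 identity genes and B cell markers left of it. The T and NK cell and the neutrophil and erythroid lists, few of whose members passed the filter on low counts, are not drawn.

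The next rankings left out predicted genes, genes under a mean of 5 CPM in the higher group and genes with overlapping groups. Among the called genes that remained, those with the largest differences at the label CD11b were mostly outside the identity lists. Serpine2, an inhibitor of serine proteases, stood at 5.25 and 13.4 CPM in CD11b KO 1 and 2 and had no count in either CD8 KO library, which is at least 76.5-fold higher taking 3 counts in the whole group as the limit of detection. Ptgis, the prostacyclin synthase, stood at 15.6 and 14.2 CPM against 0.0824 and 0 CPM, with 1 count in the CD8 KO libraries, and a ratio of 352 (95% counting interval 62.6 to 13930.0). Mab21l3 reached 75.6 and 80.6 CPM against 1.07 and 0.0871 CPM (7.02 ± 0.49). Plpp1, a lipid phosphatase, reached 55.7 and 56.1 CPM against 1.32 and 0.697 CPM (5.77 ± 0.33), and Ttc39a 106 and 111 CPM against 1.65 and 1.22 CPM (6.23 ± 0.41). The remaining genes among the 12 largest higher differences were Cpne8, Vil1, Pcsk5, Cd8a, Tmtc1, Efcc1 and Homer2, at 19.9 and 21.7 CPM against 0.494 and 0.0871 CPM for the last, a scaffold protein of synapses. All 12 were also called higher in WT.

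In the other direction, Cd101, an inhibitory immunoglobulin-like receptor, had no count in either CD11b KO library and stood at 33.8 and 32.6 CPM in CD8 KO 1 and 2, at least 243-fold higher there. Sirpb1a, an activating relative of SIRP alpha, had 1 count in the CD11b KO libraries and 94.5 and 85.7 CPM in the CD8 KO libraries. Its ratio at the label CD8 over CD11b was 1976 (95% counting interval 354 to 78100.0). The lectins Clec4a1, Clec4a3, Clec4a4 and Clec4e, the paired receptors Sirpb1b and Siglece, the protease inhibitor gene Cst7, the tetraspanin partner Ptgfrn and the interferon-inducible Ifi206 and Ifit1bl1 completed the 12 largest lower differences. Clec4a3 had no count against 15.6 and 14.2 CPM, at least 109-fold, and Clec4e, the receptor Mincle, no count against 5.60 and 5.75 CPM, at least 41.4-fold. Reads that map to several places were not counted, so values of the SIRP beta and Clec4a families, which have near-identical copies, reflect only the sequence that is unique to each copy and are uncertain. All 12 were also called lower in WT.

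Lineage transcription factors were more often lower than higher at the label CD11b. Of 40, 8 were higher and 22 lower, with a median of −0.47 (−0.43 to −0.53 when each KO library was left out in turn). Zeb2, a repressor that favours cDC2, stood at 23.5 and 25.2 CPM in CD11b KO 1 and 2 against 257 and 299 CPM in CD8 KO 1 and 2 (−3.51 ± 0.27). Tbx21, which encodes T-bet, stood at 2.32 and 5.50 CPM against 60.3 and 67.4 CPM (−3.99 ± 0.28), and Cebpb at 12.7 and 15.8 CPM against 113 and 115 CPM (−2.99 ± 0.24). The CD8 KO libraries were the high ones for these 3. Hhex, a homeobox factor, was higher at the label CD11b (83.9 and 85.3 CPM against 18.9 and 15.7 CPM, 2.29 ± 0.20). Spi1, which encodes the myeloid factor PU.1, and Nr4a3, an orphan nuclear receptor, were abundant at both labels and not called (0.19 ± 0.10 and 0.23 ± 0.10).

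Receptors and signalling genes for growth factors, cytokines and Notch divided between the labels, with 6 higher and 9 lower of 25 tested. Notch4 stood at 159.6 and 184 CPM in CD11b KO 1 and 2 against 13.3 and 8.36 CPM in CD8 KO 1 and 2 (3.98 ± 0.20), while Notch2, the receptor needed for splenic cDC2, stood at 569 and 581 CPM against 699.8 and 623 CPM and was not called (−0.20 ± 0.10, adjusted p = 0.152). Csf2rb and Csf2rb2, near-identical genes for beta chains of cytokine receptors, were higher (1.17 ± 0.12 and 1.23 ± 0.14). Reads that map to several places were not counted, so the values of this pair are uncertain. Il4ra and Il2rg, chains of the interleukin-4 receptor, were lower (−1.25 ± 0.11 and −2.64 ± 0.19).

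Receptors that sense carbohydrates, antibodies and cell surfaces were concentrated at the label CD8. Of 26 C-type lectins tested, 4 were higher and 13 lower, with a median of −2.96 (−2.66 with 5 genes at their bound). The 4 higher lectins were Clec9a, Clec12a, Cd207 and Ly75, the uptake receptor DEC-205, at 396 and 364 CPM against 68.8 and 65.7 CPM (2.5 ± 0.13). Clec7a, the beta-glucan receptor Dectin-1, stood at 92.8 and 90.9 CPM against 685 and 602 CPM (−2.81 ± 0.17) and Cd209a at 2.52 and 1.25 CPM against 56.9 and 58.01 CPM (−4.95 ± 0.39). Of 32 Fc, SIRP, TREM and other paired receptors, 3 were higher and 27 lower. Their median was −3.04 (−2.80 to −3.16 when each KO library was left out in turn). Fcer1g, the signalling chain of activating Fc receptors, stood at 11.3 and 21.9 CPM against 173 and 178 CPM (−3.39 ± 0.21). Cd300a, an inhibitory receptor for phospholipids, was lower (−3.1 ± 0.19), as was the collagen receptor Lair1 (−2.91 ± 0.24). Treml4, which binds dead cells, was one of the 3 that were higher, at 141 and 125 CPM against 34.8 and 37.2 CPM (1.88 ± 0.15).

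Toll-like receptor genes were found on both sides and cytosolic sensors mostly at the label CD8. Of 26 Toll-like receptor and adaptor genes, 5 were higher and 11 lower, and 3 rather than 5 were higher without CD8 KO 1. The receptor for double-stranded RNA, Tlr3, stood at 127 and 153 CPM in CD11b KO 1 and 2 and at 15.5 and 13.3 CPM in CD8 KO 1 and 2 (3.27 ± 0.18). Tlr11 and Tlr12, receptors for profilin of protozoa, were higher (3.65 ± 0.26 and 2.86 ± 0.28). On the other side were Tlr7 for single-stranded RNA, at 7.67 and 6.25 CPM against 44.6 and 52.3 CPM (−2.8 ± 0.29), and Tlr1, Tlr2, Tlr5 and Tlr9, with log2 fold changes from −3.32 to −1.23. Unc93b1, the chaperone of endosomal Toll-like receptors, was not called (0.16 ± 0.11). Of 25 cytosolic sensor and inflammasome genes, 2 were higher and 16 lower. Their median was −1.16 (−0.85 to −1.14 when each KO library was left out in turn). Ddx58, which encodes the RNA sensor RIG-I, stood at 2.02 and 3.75 CPM against 78.8 and 88.7 CPM (−4.83 ± 0.28). The inflammasome gene Nlrp3 stood at 130.3 and 159 CPM against 435 and 374 CPM (−1.48 ± 0.13), and Nlrc4, the adaptor for flagellin receptors, at 3.43 and 4.92 CPM against 36.98 and 30.1 CPM (−3.0 ± 0.45). These 3 were likewise high in both CD8 KO libraries.

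Genes of MHC class II presentation were more often called lower and those of class I more often called higher, with exceptions in both. Of 24 genes of MHC class II presentation, 3 were higher and 10 lower, beside 10.3% and 12.5% of all genes. The class II molecule itself was abundant at both labels: H2-Ab1, its beta chain, stood at 7604 and 7902 CPM against 7152 and 6396 CPM and was not called (0.19 ± 0.07, adjusted p = 0.0633), nor was Cd74, the invariant chain (0.12 ± 0.07, adjusted p = 0.251). Among genes of antigen processing, Cst3, the inhibitor cystatin C, reached 2907 and 2885 CPM in CD11b KO 1 and 2 against 354 and 339 CPM in CD8 KO 1 and 2 (3.06 ± 0.10). The endosomal proteases Lgmn, Ctss and Ctsh were lower (−2.19 ± 0.13, −1.08 ± 0.11 and −1.31 ± 0.12), as were the class II genes H2-DMb2 and H2-Eb2 (−1.77 ± 0.14 and −2.84 ± 0.22).

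Of 33 genes of MHC class I presentation and cross-presentation, 14 were called higher and 9 lower. Called or not, 17 had a log2 fold change above 0 and 16 below. The median was 0.04 (−0.06 to 0.13 when each KO library was left out in turn). Members of the peptide loading path were among the 14: Tap2, a chain of the peptide pump, stood at 224 and 255 CPM against 124 and 115 CPM (1.0 ± 0.12), and the chaperones Calr and Pdia3 were higher (0.95 ± 0.09 and 1.31 ± 0.12). Psme1, the proteasome activator chain PA28 alpha, was higher (1.06 ± 0.11). Cybb, the membrane subunit of the phagosomal oxidase, was on the other side, at 45.3 and 47.5 CPM against 414 and 479 CPM (−3.26 ± 0.16), while Ncf1, a cytosolic subunit, was not called (−0.09 ± 0.10). Of 24 genes for uptake of apoptotic cells, 4 were higher and 11 lower. Cd36, a scavenger receptor of cDC1, stood at 156 and 204 CPM against 15.1 and 24.04 CPM (3.2 ± 0.28). Axl, a receptor kinase that recognises dead cells through GAS6, stood at 7.57 and 13.1 CPM against 72.1 and 80.3 CPM (−2.87 ± 0.23), and Lrp1 at 58.3 and 42.3 CPM against 394 and 326 CPM (−2.84 ± 0.24).

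Genes through which dendritic cells act on T cells were called in both directions. Of 32 costimulatory and checkpoint genes, 6 were higher and 9 lower. The higher calls fell to 3 without CD11b KO 2 and to 3 without CD8 KO 2, and the lower calls to 5 without CD11b KO 2. Btla, an inhibitory receptor, stood at 272 and 284 CPM in CD11b KO 1 and 2 against 64.6 and 77.3 CPM in CD8 KO 1 and 2 (1.97 ± 0.13). Cd274, which encodes PD-L1, stood at 95.7 and 89.9 CPM against 265 and 205 CPM (−1.34 ± 0.14), and Icosl, the ligand of ICOS, was lower (−0.90 ± 0.17). Havcr2, which encodes TIM-3, was higher (0.60 ± 0.11).

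Of 25 cytokine genes tested out of 33, 3 were higher and 9 lower, beside 10.3% and 12.5% of all genes. Il12b, the shared chain of interleukin-12 and interleukin-23, stood at 167 and 176 CPM in CD11b KO 1 and 2 and at 41.5 and 47.9 CPM in CD8 KO 1 and 2 (1.94 ± 0.19). Vegfa stood at 37.7 and 18.8 CPM against 379 and 259 CPM (−3.51 ± 0.22), and Il1rn, the antagonist of the interleukin-1 receptor, at 4.24 and 5.75 CPM against 87.5 and 74.9 CPM (−4.01 ± 0.22). The CD8 KO libraries were the high ones for both. Il1b itself was abundant at both labels and lower (−1.25 ± 0.12) at the label CD11b. Of 14 chemokine ligand genes tested out of 27, 3 were higher and 4 lower. Cxcl9, a ligand of CXCR3, stood at 180.3 and 197 CPM against 18.7 and 23.1 CPM (3.18 ± 0.18), and Ccl9 at 0.101 and 1.000 CPM against 27.8 and 31.2 CPM (−5.63 ± 0.57).

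Of 30 chemokine and homing receptor genes tested, 4 were higher and 10 lower, beside 10.3% and 12.5% of all genes. P2ry14, a receptor for UDP-glucose, stood at 202 and 188 CPM against 12.8 and 14.8 CPM (3.82 ± 0.20). Gpr183, the oxysterol receptor that positions cDC2 in the spleen, was lower (−1.82 ± 0.20), with 33.8 and 38.2 CPM against 127 and 129 CPM. Ccr7, the receptor that guides dendritic cells to T cell zones, was lower (−1.04 ± 0.12). Of 27 integrin and adhesion genes, 8 were higher and 11 lower, and 7 rather than 11 were lower without CD8 KO 1. Itgax, which encodes CD11c, was high at both labels, at 609 and 589 CPM against 1341 and 1211 CPM (−1.09 ± 0.10). Itga8 was higher (2.83 ± 0.26) and Itgb3 lower (−2.64 ± 0.24).

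Core autophagy genes were called about as often as all genes between the subsets that lacked Atg16l1, with small differences among those named here. Of 44 tested, 9 were called beside 22.8% over all genes, 5 of them higher and 4 lower, and the median was −0.125 (−0.22 without CD11b KO 1, −0.19 without CD11b KO 2 and −0.07 without CD8 KO 2). The higher calls fell to 2 without CD11b KO 2 and the lower calls to 2 without CD8 KO 2. Sqstm1, which encodes the cargo receptor p62, stood at 559 and 545 CPM in CD11b KO 1 and 2 against 388 and 408 CPM in CD8 KO 1 and 2 (0.47 ± 0.11, adjusted p = 0.00252). Atg3, an enzyme that acts with the ATG16L1 complex on LC3, stood at 112 and 125 CPM against 71.6 and 78.04 CPM (0.66 ± 0.13). Atg16l2, the paralog of the deleted gene, stood at 34.8 and 47.2 CPM against 23.1 and 24.9 CPM (0.77 ± 0.21), and was not called without CD11b KO 2 at 0.54 (adjusted p = 0.145) or CD8 KO 1 at 0.72 (adjusted p = 0.0689). All 3 were higher by less than 2-fold. Uvrag, a partner of Beclin 1, and Gabarapl1, a relative of LC3, were lower (−0.51 ± 0.11 and −0.85 ± 0.19). Becn1 and Tax1bp1 were not called (0.21 ± 0.13 and 0.25 ± 0.11).

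Genes of the lysosome, where autophagy ends, differed in both directions. Of 47 tested, 11 were higher and 13 lower, with a median of −0.01 (−0.17 to 0.04 when each KO library was left out in turn). Their summed level was 12591 and 14113 CPM in CD11b KO 1 and 2 and 6435 and 6394 CPM in CD8 KO 1 and 2. Most of the gap between these sums came from Psap and Ppt1. Log2 fold changes were above 0 for 23 of the 47 genes and below 0 for 24. Gusb, the beta-glucuronidase, stood at 541 and 570.2 CPM against 60.8 and 76.6 CPM (3.02 ± 0.13), and Psap, the precursor of the saposins, at 5427 and 5972 CPM against 1813 and 1775 CPM (1.67 ± 0.08). Slc11a1, the phagosomal metal transporter, stood at 167 and 169 CPM against 30.7 and 39.1 CPM (2.27 ± 0.15). The CD11b KO libraries were the high ones for these 3 and for Ppt1. Ctsa stood at 43.7 and 57.2 CPM against 249 and 256 CPM (−2.32 ± 0.15), and Acp5 and Gla were lower (−2.33 ± 0.19 and −2.24 ± 0.21). Lamp2, a membrane protein of lysosomes, was not called (−0.38 ± 0.16, adjusted p = 0.101).

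Most interferon response genes were lower at the label CD11b. Of 42 tested out of 43, 28 were lower and 3 higher. Their median was −1.38 (−1.304 to −1.485 when each KO library was left out in turn). In WT, 25 were lower and 5 higher. Promoter sequences (250 bases before to 50 after the start, from RefSeq on GRCm38.p6) were available for 34 of the 43, and 20 of these (58.8%) held GAAANNGAAA, the core of the interferon-stimulated response element, on either strand (TTTCNNTTTC on the other), against 1079 of 27025 genes (3.99%) over all promoters of that length. The share was 14 of 23 (60.9%) for genes called lower and 5 of 8 (62.5%) for genes not called. A match describes the sequence and nothing more. Stretches of 110 bases are shown for 3 called members, chosen after their values were seen, and for Gbp2 and Gbp3, whose subset difference is tested against WT below. Each is written 5′ to 3′ on the strand of the gene, with the matches in capitals, which overlap in Gbp3. The Gbp2 stretch runs past the gene start given below, which comes from another annotation than the RefSeq start used here.
Gbp7 (chr3:142530193-142530302, + strand): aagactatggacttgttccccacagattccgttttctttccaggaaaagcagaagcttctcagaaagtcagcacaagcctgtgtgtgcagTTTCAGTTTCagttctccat
Ifit1 (chr19:34640714-34640823, + strand): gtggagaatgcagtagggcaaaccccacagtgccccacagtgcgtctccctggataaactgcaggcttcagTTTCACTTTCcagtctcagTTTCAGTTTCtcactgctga
Rsad2 (chr12:26456553-26456662, - strand): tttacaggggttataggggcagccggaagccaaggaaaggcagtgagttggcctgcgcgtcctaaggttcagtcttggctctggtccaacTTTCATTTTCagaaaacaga
Gbp2 (chr3:142620514-142620623, + strand): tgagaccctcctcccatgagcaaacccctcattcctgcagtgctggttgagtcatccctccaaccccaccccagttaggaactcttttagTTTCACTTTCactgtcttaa
Gbp3 (chr3:142559915-142560024, + strand): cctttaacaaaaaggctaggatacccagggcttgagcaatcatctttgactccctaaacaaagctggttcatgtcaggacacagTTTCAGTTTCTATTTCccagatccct

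Among the interferon response genes, Ifit1, which binds foreign RNA caps, stood at 0.807 and 0.583 CPM in CD11b KO 1 and 2 and at 15.5 and 12.6 CPM in CD8 KO 1 and 2 (−4.33 ± 0.47). Rsad2, the antiviral enzyme viperin, stood at 10.7 and 5.08 CPM against 60.8 and 44.9 CPM (−2.76 ± 0.30), and Gbp7, a guanylate-binding protein, at 1.72 and 1.17 CPM against 19.02 and 22.5 CPM (−3.85 ± 0.39). The 3 genes shown by sequence were thus high in both CD8 KO libraries. Oas2, a synthase of the RNase L activator, was lower (−4.73 ± 0.45), as was its relative Oasl2 (−3.99 ± 0.32). Ifitm3, a membrane protein that restricts virus entry, stood at 28.96 and 25.1 CPM against 106 and 98.3 CPM (−1.92 ± 0.18). Irf7, the master regulator of type I interferon, was not called, at 127 and 143 CPM against 173 and 155 CPM (−0.28 ± 0.15, adjusted p = 0.207).

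Glycolysis genes were called in both directions, and lipid genes mostly at the label CD8. Of 27 glycolysis genes tested, 8 were higher and 7 lower. The hexokinase gene Hk3 stood at 145 and 144 CPM in CD11b KO 1 and 2 against 11.4 and 14.9 CPM in CD8 KO 1 and 2 (3.46 ± 0.24), while Hk1 was lower (−0.88 ± 0.17). Pfkp, a phosphofructokinase, was higher (1.68 ± 0.11). The glucose transporters Slc2a3, Slc2a6 and Slc2a1 were lower (−3.31 ± 0.19, −3.62 ± 0.32 and −2.24 ± 0.29), and so was Slc16a3, a lactate exporter (−3.7 ± 0.25). Of 39 sterol and lipid handling genes, 3 were higher and 16 lower. Their median was −0.82 (−0.72 to −0.85 when each KO library was left out in turn). Apoe, the lipid carrier of apolipoprotein E, stood at 128 and 138 CPM against 499 and 528 CPM (−1.95 ± 0.15), and Abca1, the cholesterol exporter, at 12.3 and 11.6 CPM against 77.3 and 74.6 CPM (−2.67 ± 0.25). Nr1h3, which encodes the oxysterol receptor LXR alpha, was lower (−3.61 ± 0.52). Ptgs2, the inducible cyclooxygenase, stood at 25.4 and 25.8 CPM against 690.0 and 503.1 CPM (−4.54 ± 0.19). The CD8 KO libraries were the high ones for all of these lipid genes.

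Cell cycle and survival genes were called in both directions. Of 41 cell cycle genes, 1 was higher and 9 lower, beside 10.3% and 12.5% of all genes, and without CD11b KO 1 or CD8 KO 1 the higher call was lost and the lower calls fell to 5. Mki67 was not called (509.7 and 558 CPM against 690.5 and 595 CPM, −0.27 ± 0.12, adjusted p = 0.116). The D cyclins Ccnd2 and Ccnd1 and the inhibitor Cdkn1a were lower (−3.18 ± 0.21, −1.44 ± 0.12 and −2.13 ± 0.18). Of 19 BCL2 family genes tested, 2 were higher and 4 lower, beside the same shares of all genes. Dropping CD11b KO 2, CD8 KO 1 or CD8 KO 2 left 1 higher call, and dropping CD11b KO 1 or CD8 KO 2 left 2 lower calls. Bcl2l1, which encodes the survival protein BCL-XL, stood at 44.9 and 37.9 CPM against 13.4 and 15.7 CPM (1.51 ± 0.26). Of 29 immediate early genes, which tissue digestion can induce, 3 were higher and 13 lower. Jun stood at 182 and 151 CPM against 735 and 542 CPM (−1.94 ± 0.25), Egr1 at 49.04 and 55.2 CPM against 190.0 and 170.4 CPM (−1.79 ± 0.23) and Fosb at 1066 and 1042 CPM against 2544 and 2272 CPM (−1.19 ± 0.11). Their summed level was 13978 and 14245 CPM in the CD11b KO libraries and 20246 and 17503 CPM in the CD8 KO libraries, against 15181 to 16729 CPM in CD11b WT and 21035 to 26175 CPM in CD8 WT, and the part of tissue handling in these differences was not tested. Of 19 genes of mature dendritic cells, 4 were higher and 8 lower. Relb, an NF-kappaB subunit, was lower (−1.15 ± 0.12) and Serpinb6b higher (2.59 ± 0.16), with 229 and 224 CPM against 36.1 and 38.9 CPM.

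B cell transcripts were higher at the label CD8, and most of all in CD8 KO 2. The summed level of 20 B cell markers was 314 and 664 CPM in CD11b KO 1 and 2, 1167 CPM in CD8 KO 1 and 3158 CPM in CD8 KO 2, against 324 to 417 CPM in CD11b WT and 692 to 1319 CPM in CD8 WT. CD8 KO 1 thus lay within the CD8 WT range and CD8 KO 2 above it. All 20 genes were higher in CD8 KO 2 than in each of the 3 CD8 WT libraries, and 18 of 20 were in CD8 KO 1 at or under the highest CD8 WT library. The ratio of CD8 KO 2 to CD8 KO 1 ran from 1.6 for Spib to 10.1 for Fcrla, with a median of 3.38, and reached 2 for 16 of the 20. Over all tested genes with a count in both libraries the median ratio was 0.998, and 8.63% reached 2. The CD11b KO libraries also differed, by 2.115-fold in the summed level.

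**Figure D4:**
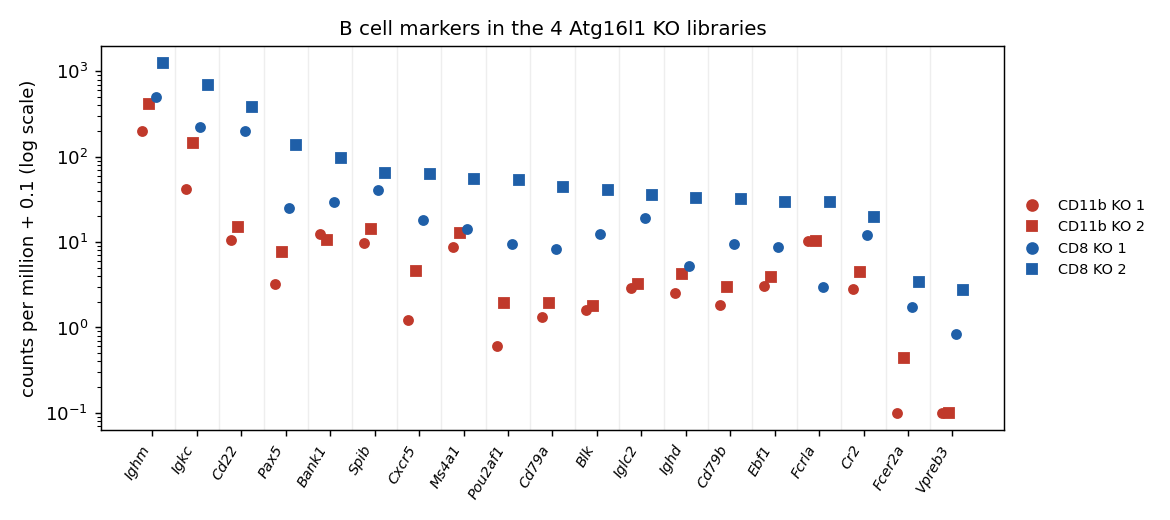
Level of 19 of the 20 B cell markers in each Atg16l1 KO library, as CPM + 0.1 on a log axis. Circles are replicate 1 and squares replicate 2, red for the label CD11b and blue for the label CD8. The blue square, CD8 KO 2, is the highest point for every gene drawn, from Ighm at 1242 CPM to Vpreb3 at 2.61 CPM.

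Of the 19 B cell markers tested, 18 were called lower at the label CD11b with all 4 libraries. The median log2 fold change was −3.14 with all 4 and −2.0 without CD8 KO 2. It was −2.82 without CD11b KO 1, −3.46 without CD11b KO 2 and −3.56 without CD8 KO 1. In WT, 13 were lower. Ms4a1, which encodes CD20, stood at 8.78 and 12.7 CPM in CD11b KO 1 and 2 and 14.2 and 55.04 CPM in CD8 KO 1 and 2. Its log2 fold change moved from −1.69 ± 0.43 to −0.40 (adjusted p = 0.632) without CD8 KO 2, with no call. It was also not called without CD11b KO 1 at −1.45 (adjusted p = 0.0787). Pax5, the B cell identity factor, stood at 3.13 and 7.58 CPM against 25.04 and 137 CPM, and moved from −3.89 ± 0.59 to −2.2 (adjusted p = 0.00302) without that library. Cd79a, a chain of the B cell receptor, moved from −4.07 ± 0.64 to −2.4 (adjusted p = 0.0145). These markers were thus present in both CD8 KO libraries and highest in the second, and they were not at 0 in CD11b KO.

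The immunoglobulin chains followed the same order. Ighm stood at 198 and 417 CPM against 504.1 and 1242 CPM, and moved from −1.5 ± 0.36 to −0.71 (adjusted p = 0.207) without CD8 KO 2, with no call. It also lost its call without CD11b KO 1 at −1.06 (adjusted p = 0.0864). Igkc stood at 41.8 and 146 CPM against 224 and 697 CPM, and moved from −2.29 ± 0.44 to −1.25 (adjusted p = 0.0428) without CD8 KO 2 and to −3.46 (adjusted p = 5.29e-05) without CD11b KO 2. In contrast, Cd22, an inhibitory lectin of B cells, stood at 10.4 and 14.8 CPM against 201 and 387 CPM and at 197 to 224 CPM in CD8 WT, and kept a log2 fold change of −3.98 without CD8 KO 2 (from −4.53 ± 0.26). Spib, a transcription factor that B cells share with plasmacytoid dendritic cells, moved from −2.13 ± 0.31 to −1.75 (adjusted p = 0.000834). Fcrla stood at 10.3 and 10.3 CPM against 2.88 and 29.2 CPM and was not called with all libraries (−0.63 ± 0.58), while without CD8 KO 2 it was higher at the label CD11b (1.84, adjusted p = 0.0312).

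Markers of other cell types were measured in the same libraries. Of 11 plasma cell markers tested, 7 were lower and 1, Xbp1, higher. Lower calls numbered 2 without CD8 KO 2 and 4 without CD11b KO 2, Xbp1 was not called without CD11b KO 1, CD8 KO 1 or CD8 KO 2, and their summed level was 131 and 132 CPM in CD11b KO against 185 and 362 CPM in CD8 KO. Prdm1, which cDC2 also express, was lower with and without CD8 KO 2 (−4.13 ± 0.39 and −4.11). Of 20 T and NK cell markers, 9 passed the filter on low counts and none of these was called, while 2 of the 20 had no count in KO. The list summed to 19.3 to 28.3 CPM over the 4 libraries. Of 18 markers of red pulp macrophages and C1q, 10 were lower and 1 higher, with sums of 351 and 373 CPM in CD11b KO and 597 and 625 CPM in CD8 KO, against 405 to 529 CPM in CD8 WT. C1qa stood at 3.03 and 3.42 CPM against 38.95 and 32.8 CPM (−3.47 ± 0.38) and C1qb at 5.85 and 7.92 CPM against 42.6 and 48.4 CPM (−2.72 ± 0.30). Of 12 monocyte markers tested, 6 were lower and 1 higher (2 without CD8 KO 2), and Ace, which encodes angiotensin-converting enzyme, was lower (−5.03 ± 0.29). Of 16 markers of plasmacytoid dendritic cells, 5 were higher (3 without CD11b KO 2) and 4 lower. Siglech and Ccr9 were higher (4.78 ± 0.49 and 2.22 ± 0.34), with 24.02 and 23.2 CPM against 0.576 and 1.13 CPM for the first. Spib, given above, was among the 4 lower. The list had a median log2 fold change of 0.01. It summed to 439 and 477 CPM in CD11b KO and to 591 and 625 CPM in CD8 KO, so the sum was higher at the label CD8. The part of such cells in the subset differences was not tested. Without CD8 KO 2, the cDC1 identity list kept its 25 higher and 1 lower and the cDC2 identity list its 24 lower and 3 higher calls.

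The subset difference in KO was tested against that in WT by the difference of the differences, and 3 of 14528 genes (0.0206%) were called, with 793 at an unadjusted p under 0.05. The count was 8 without CD8 KO 1, 6 without CD8 WT 1 and 5 without each of CD11b WT 1, CD11b WT 3 and CD8 WT 3. All 3 had a more negative subset difference in KO. Plcb4 (ENSMUSG00000039943, chromosome 2, 135659011 to 136014593), a phospholipase C that acts below G protein-coupled receptors, stood at 112 and 114 CPM for the KO libraries labelled CD11b and at 124 and 125 CPM for those labelled CD8, and the difference was not called (−0.13 ± 0.18, adjusted p = 0.688). In WT it stood at 68.3, 57.2 and 73.7 CPM at the label CD11b and at 13.3, 8.06 and 14.3 CPM at the label CD8 (log2 fold change 2.49). Each KO library was thus above each WT library of its label, by more at the label CD8, and the subset difference called in WT was not called in KO. The difference of the differences was −2.62 ± 0.24 (adjusted p = 4.72e-06).

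Gbp2 (ENSMUSG00000028270, chromosome 3, 142620602 to 142638008) and Gbp3 (ENSMUSG00000028268, chromosome 3, 142560026 to 142573209), neighbouring genes for interferon-inducible GTPases, had opposite subset differences in the 2 genotypes. Gbp2 stood at 69.9, 92.8 and 91.4 CPM in CD11b WT and 49.8, 59.4 and 45.6 CPM in CD8 WT (log2 fold change 0.71). In KO it stood at 9.08 and 12.7 CPM at the label CD11b and 34.01 and 55.6 CPM at the label CD8 (−2.03 ± 0.24). Gbp3 stood at 6.36 and 9.92 CPM in CD11b KO and 33.8 and 41.7 CPM in CD8 KO (−2.2 ± 0.25), against 0.64 in WT, where its levels were 74.5, 108 and 101 CPM at the label CD11b and 43.7, 65.1 and 72.6 CPM at the label CD8. Both genes were lower in each CD11b KO library than in any other library. The differences of the differences were −2.74 ± 0.29 and −2.84 ± 0.31 (adjusted p = 2.73e-05 for both), and the 3 genes were also called in every alternative of the processing. Gbp7, in the same cluster, was lower in both genotypes (−3.85 in KO and −3.58 in WT, adjusted p of the difference = 0.988). Other members of this family had differences of either sign that were not called, among them −2.20 and 0.22. Multi-mapping reads of this gene family were not counted, so its levels are uncertain.

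**Figure D5:**
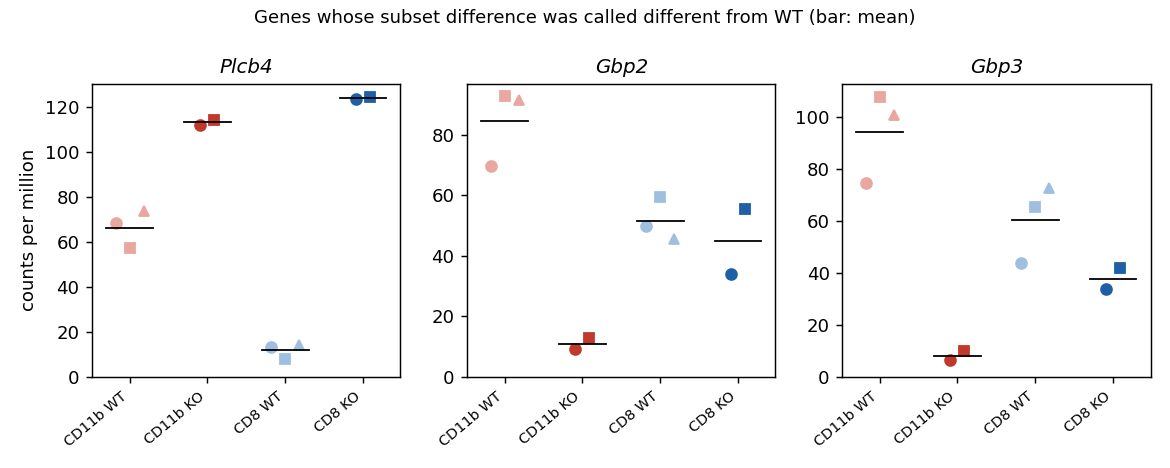
Level in CPM of Plcb4, Gbp2 and Gbp3 in all 10 libraries, by subset label and genotype, with a bar at the mean of each group. Circles, squares and triangles are replicates 1, 2 and 3, and darker colours are KO. Plcb4 is high in CD8 KO and low in CD8 WT, and Gbp2 and Gbp3 are lowest in CD11b KO.

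The next genes by p did not pass the threshold. Apoe had a subset difference of −1.95 in KO and −0.94 in WT, a difference of −1.0 ± 0.18 with an adjusted p of 0.0523. Lima1, an actin-binding protein, had log2 fold changes of 1.5 in KO and 2.72 in WT (difference −1.22 ± 0.22, adjusted p = 0.0523), with 116 and 105 CPM in CD11b KO and 41.7 and 36.2 CPM in CD8 KO against 127 and 19.2 CPM as means in WT. In the positive direction, the predicted gene Gm36723 stood at 79.6 and 91.8 CPM in CD11b KO and 0.576 and 0.0871 CPM in CD8 KO, with log2 fold changes of 7.94 in KO and 5.17 in WT (adjusted p = 0.059). Ceacam16 had log2 fold changes of −2.35 in KO and −5.35 in WT (adjusted p = 0.059), and Nrg2, a neuregulin, had 4.0 and 1.82 (adjusted p = 0.165). Ighg3, an immunoglobulin heavy chain gene, stood at 9.08 and 7.00 CPM in CD11b KO and 15.2 and 23.8 CPM in CD8 KO, against 0.0930 to 0.380 CPM in CD11b WT and 3.03 to 15.2 CPM in CD8 WT. Its log2 fold changes were −1.28 in KO, which was not called, and −5.19 in WT (adjusted p of the difference = 0.167). The predicted gene Gm14236 had 0.15 and −0.56 (adjusted p = 0.192). The identity markers Cd8a, Xcr1, Itgam and Sirpa were not called by this test, with an adjusted p of 0.965 for Cd8a, the lowest of the 4.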

How the data were processed

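RNA from sorted spleen dendritic cells was sequenced in 10 libraries made, per the labels, with a stranded total RNA kit for low input. The deposited values are raw counts of reads per gene in STAR's layout, and the submitters' processing notes name STAR 2.5.0a and GRCm38. The annotation release, trimming and duplicate handling are not given in the sources used here. Each file held 53379 genes. The column for the strand of the kit held 13.5 to 17.7 times the counts of its opposite and was used, with a column that ignores strand as an alternative. Reads that mapped to several places (21.7% to 25.5%), and the other 3 lines for reads given to no gene, stayed out of library sizes. CPM were computed from these counts over the TMM-normalised library sizes of the genes tested, so they differ by a few percent from counts over the raw totals.

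Samples were grouped by label and genotype. Counts passing filterByExpr by group (14528 genes) were scaled by TMM and fitted with edgeR 4.0.16 (R 4.3.3) over all 10 libraries with 4 group means. The contrasts were CD11b KO minus CD8 KO, the same in WT, and their difference, by the quasi-likelihood test with Benjamini-Hochberg adjustment over all genes. Alternatives were RLE scaling, other filters on low counts, unstranded counts, the 4 KO libraries alone, a replicate block, removal of mitochondrial, ribosomal RNA and immunoglobulin genes, DESeq2 1.42.0, limma-voom (limma 3.58.1) and each library left out. Scripts were tested on simulated data. The 32 gene lists hold 913 entries, 911 matched by symbol and 2 by synonym.

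The members and lists were chosen with earlier results of these data known. Genes named were Atg16l1, the 4 markers, the 12 largest called differences in each direction at a mean of at least 5 CPM in the higher group with groups that do not overlap (predicted genes left out), any member of the cDC1, cDC2 and B cell lists, up to 8 called members with the smallest p and 3 abundant members not called from other lists, and the 5 smallest p in each direction against WT. Values of 2 list members are not reported here, though list counts include them. Counting intervals and floors (3 counts over the group) cover counting error only, and the kit's reads carried no molecular identifiers named in the labels. Figures were drawn with matplotlib 3.10.9.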

Additional observations from a re-analysis of the deposited data

Results flagged for a closer look

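For 3 genes the subset difference itself differed between the genotypes by edgeR's quasi-likelihood test of the interaction, adjusted over 14528 genes. For Plcb4 the difference of the log2 fold changes, KO minus WT, was −2.62, for Gbp2 it was −2.74 and for Gbp3 −2.84. Groups of 2 or 3 libraries are too small to test for a single outlying sample.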

How the results depend on the processing

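With 2 libraries in each KO group, 3312 genes were called between the subsets, and this count stayed within 1.5 times of itself under each alternative run, from 3148 (unstranded counts) to 3796 (replicate block in the 4 KO libraries alone), or 3564 with the block in 10 libraries, and from 2421 to 3470 when 1 library was left out. The share of calls that were higher at the label CD11b ran from 43.4% to 47.5%. The count of genes whose subset difference differed from WT moved from 3 to 41 without a filter on low counts, 6 with unstranded counts, 7 without mitochondrial, ribosomal RNA and immunoglobulin genes, 11 with DESeq2 and 28 with the replicate block, and ran from 3 to 8 when 1 library was left out. The 3 genes were called in each of these, and the cause of the added calls was not tested. Whether the numbers 1 to 3 pair the samples stays unknown, and the main fit treated the libraries as unpaired. Same-numbered libraries of both labels deviated from their group means with correlations of 0.0182 to 0.0491, below the 0.1 set for pairing. In WT and KO alike each library correlated best with its own number. With 2 libraries in each KO group, the KO correlations could only be 1 value with either sign (0.0409 or −0.0409).

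Of 164 named genes that were called, 157 stayed called in the 20 alternatives in which each could be tested. The exceptions were Atg16l2, Cxcr3, Esam, Fgl2, Ighm, Ms4a1 and Xbp1, each lost without at least 1 KO library, with Ighm also lost by DESeq2 (adjusted p = 0.0645) and Ms4a1 by limma-voom (adjusted p = 0.0525). None of these named genes changed direction, while 2 of all 3312 called genes changed sign without a KO library. Atg16l1, not called, had a log2 fold change of 0.07 with unstranded counts and ran from −0.46 to 0.48 when 1 library was left out. Fcrla, not called, stood at 0.05 and 0.01 with the replicate block in 10 and 4 libraries and 0.21 by limma-voom, and ran from −1.5 to 1.84 (without CD8 KO 2, adjusted p = 0.0312) when 1 library was left out.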
